A study of Drosophila melanogaster with 8 samples.

Results

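The glutathione transferase genes of Drosophila were followed in adult heads with and without HEXIM knockdown in the eye. The genes were taken by name, as the probe sets annotated to a single symbol that starts with Gst and a class letter (D, E, O, S, T or Z) followed by a number. This gave 36 probe sets for 34 genes, of the 11982 genes that have a probe set of their own, with 11 genes of the delta class (D), 13 of epsilon (E), 3 of omega (O), 1 of sigma (S), 4 of theta (T) and 2 of zeta (Z). Each gene was read by its brightest probe set, that is, the one with the highest mean over the 8 arrays, and GstE9 and GstO2 had a second one. The 4 WT samples were heads of adult flies of strain W118. The 4 HEXIM knockdown samples were adult heads of flies in which the GMR-Gal4 driver switches on the UAS-Hexim-RNAi transgene. The labels give strain W118 and a rearing temperature of 29°C for both groups, and WT flies carried neither driver nor transgene, so that the knockdown cannot be told apart from the presence of these insertions. GMR-Gal4 is active in differentiating eye cells, while RNA came from many pooled whole heads, with brain, fat body, muscle and cuticle included. Neither sex nor age is given. The comparison asks which genes differ in heads whose eyes developed with less HEXIM, a protein that holds the elongation kinase P-TEFb in an inactive complex.

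Glutathione transferases join the tripeptide glutathione to reactive or foreign molecules, such as insecticides and the aldehydes left by oxidized lipids, and so make them easier to remove. In insects the delta and epsilon classes have grown by repeated gene duplication and are known for insecticide resistance and for induction by oxidative stress, in part through the transcription factor Cnc and its inhibitor Keap1. The omega, sigma, theta and zeta classes are shared with other animals, and some of their members act as isomerases or reductases in normal metabolism. In flies many of these enzymes are made in fat body and gut, and others in muscle, glia or the eye.

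The values are log2 levels of short probe sets, and a difference of 1 is a doubling of signal. A level of one probe set cannot be set against that of another, so genes are compared only with themselves across arrays. Of the 18769 probe sets tested, 48 differed between HEXIM knockdown and WT at an adjusted p under 0.05 (limma, Benjamini-Hochberg), and the median log2 fold change over all of them was -0.02. Hexim itself lay between 7.79 and 8.14 in WT and between 7.52 and 7.77 in HEXIM knockdown arrays, without passing the test (log2 fold change -0.33, adjusted p = 0.418). Head markers were present, with mean log2 levels over the 8 arrays of 9.48 to 9.68 for neurons, 12.02 to 12.49 for photoreceptors, 9.63 to 9.92 for glia and 8.18 to 9.14 for antenna. All 8 measured photoreceptor markers had a negative log2 fold change (median -0.11), as had 4 of 7 glia, 3 of 10 neuron and 1 of 6 antenna markers. None of these markers passed the test, and over all probe sets 44.6% were positive. The part of eye tissue in the values below was not tested. Genes listed for male heads averaged 4.80 to 5.02. Most of them were picked by a symbol that starts with Acp, and roX1 and roX2 were not among those measured. The sex of the heads was not read from them. The arrays WT replicates 1 and 3 and HEXIM knockdown replicate 4 stood apart from the rest. In these 3 arrays the level of the control transcripts (GAPDH, Act5C, eIF-4a) in their middle minus that at their 3' end, a sign of RNA quality, averaged -2.77 to -2.62, and in the other 5 it averaged -1.93 to -1.73. WT replicate 3 was also low in yolk protein genes and fit, markers of female heads, with a mean level of 9.21 against 11.31 to 12.91 in the other arrays. For some genes and lists the values are given with and without these arrays.

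None of the 34 glutathione transferase genes passed the test over all probe sets, where 0.256% of all probe sets did. At an unadjusted p under 0.05 in limma there were 4 genes, GstZ1, GstE11, GstE14 and GstD5, or 11.8% of the members against 7.24% of all probe sets. Every HEXIM knockdown array lay beyond every WT array for 3 genes, GstE11 above and GstZ1 and GstE14 below, which is 8.82% of the members against 5.35% of all probe sets. Both shares rest on 3 or 4 genes and lie near the background. Of the log2 fold changes, 21 were positive and 13 negative, with a median of 0.06 and a range of -0.76 to 1.05. Its standard error ran from 0.07 for GstO1 to 0.49 for GstD4. For GstD4 the 95% interval of -1.38 to 0.88 leaves room for more than a doubling downwards, whereas for GstD11 it was -0.26 to 0.10.

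**Figure D1:**
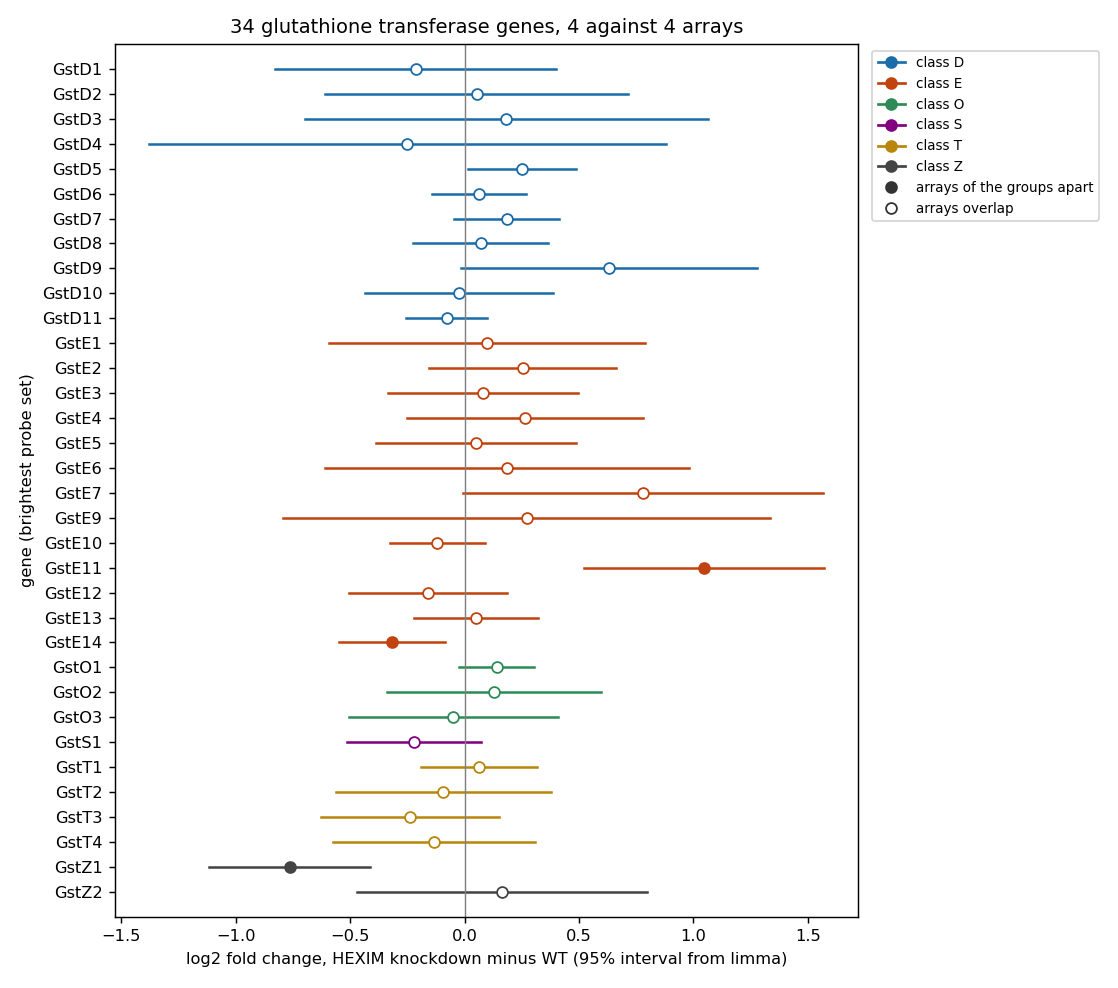
Log2 fold change of each glutathione transferase gene (y axis) in HEXIM knockdown against WT heads (x axis, log2 units), from 4 and 4 arrays. Points are limma estimates and lines their 95% intervals, not adjusted for multiple tests. Colours give the class and filled points the genes whose arrays did not overlap between the groups. GstE11 at 1.05 and GstZ1 at -0.76 lie farthest from 0.

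The zeta class held the gene with the smallest p, GstZ1. Zeta enzymes isomerize maleylacetoacetate in the breakdown of tyrosine, as known best from mammals. GstZ1 stood at 6.92, 6.75, 6.69 and 6.99 in WT replicates 1 to 4 and at 6.48, 5.86, 6.12 and 5.82 in HEXIM knockdown replicates 1 to 4. All HEXIM knockdown arrays were thus below all WT arrays, and replicate 1 was the nearest to them. The fitted difference was -0.76 (SE 0.15), or 1.70-fold lower, with an adjusted p of 0.158 in limma. The exact two-sided permutation test gave p = 0.0286, the smallest that 4 against 4 arrays allow. Any gene whose groups do not overlap has this p, as GstE11 and GstE14 below, so it only restates the lack of overlap. Without HEXIM knockdown replicate 1 the log2 fold change of GstZ1 was -0.90 and passed the test (adjusted p = 0.0342 in limma). Without the 3 arrays with low middle probe sets it was -0.71 (adjusted p = 0.425). GstZ2, its neighbour on the chromosome, differed by 0.16 (SE 0.28). It stood at 5.76, 5.82 and 5.70 in the arrays with low middle probe sets against 6.28 to 6.74 in the other 5, and without those 3 arrays it differed by -0.0073.

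None of the 13 epsilon genes passed the test, and their log2 fold changes had a median of 0.10, with 10 above 0 and 3 below. Without HEXIM knockdown replicate 1 the tally turned, to 4 above and 9 below with a median of -0.079, and without WT replicate 3 it was 7 above and 6 below. GstE11 stood at 6.47, 6.50, 6.45 and 6.61 in the WT arrays, an SD of 0.07. In HEXIM knockdown replicates 1 to 4 it stood at 8.26, 7.52, 7.43 and 7.00, an SD of 0.52. The groups did not overlap, and the HEXIM knockdown arrays were far more uneven than the WT arrays. GstE11 was 2.07-fold higher, or 1.05 on the log2 scale (SE 0.23), with an adjusted p of 0.196 in limma, and the exact two-sided permutation p was 0.0286. Without HEXIM knockdown replicate 1 the log2 fold change was 0.81 (adjusted p = 0.0961), and without the 3 arrays with low middle probe sets it was 1.18 (adjusted p = 0.327).

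GstE14, also called noppera-bo, is needed for ecdysteroid synthesis in the larval prothoracic gland. Its levels were 9.87, 9.87, 9.73 and 9.72 in WT and 9.34, 9.57, 9.69 and 9.32 in HEXIM knockdown arrays. The groups were apart by a narrow margin between WT replicate 4 and HEXIM knockdown replicate 3. GstE14 differed by -0.32 on the log2 scale (SE 0.10), with an adjusted p of 0.451 in limma and an exact two-sided permutation p of 0.0286.

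GstE7 stood at 6.84, 6.53, 6.27 and 6.28 in WT and at 8.33, 7.22, 6.57 and 6.92 in HEXIM knockdown arrays. HEXIM knockdown replicate 1 was far above the other 7, and replicate 3 lay within the WT range. The log2 fold change of 0.78 (SE 0.34, adjusted p = 0.695) became 0.42 without HEXIM knockdown replicate 1. Without the 3 arrays with low middle probe sets it was 0.96. GstE12, whose probe set was the brightest of the class, stood at 11.66, 11.64, 11.36 and 11.67 in WT and at 11.81, 11.46, 11.31 and 11.12 in HEXIM knockdown arrays. It differed by -0.16 on the log2 scale (SE 0.15) with an adjusted p of 1.000, by -0.29 without HEXIM knockdown replicate 1 and by -0.059 without HEXIM knockdown replicate 4.

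Among the other 9 epsilon genes the log2 fold change ran from -0.12 for GstE10 to 0.27 for GstE9, and the groups overlapped in each. GstE4 differed by 0.26, and by 0.52 without the 3 arrays with low middle probe sets. GstE9 reached 10.88 in one HEXIM knockdown array, replicate 1, while the other 7 arrays lay between 8.59 and 9.70. Its second probe set read near the lowest levels of the arrays, at 3.55 to 4.03, with a log2 fold change of -0.04.

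**Figure D2:**
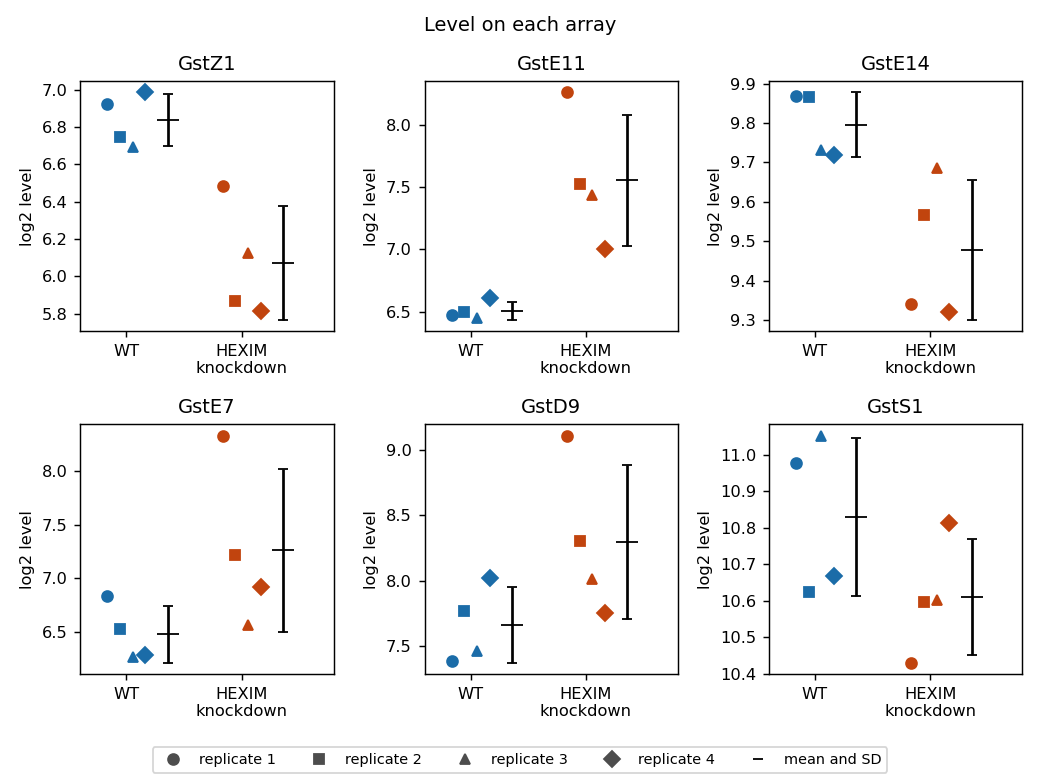
Log2 level (y axis, its range set for each gene) of 6 glutathione transferase genes on each WT array (blue) and HEXIM knockdown array (orange), with the marker shape giving the replicate and black bars the mean and SD of 4 arrays. GstZ1, GstE11 and GstE14 show no overlap between the groups, while GstE7, GstD9 and GstS1 do.

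The delta class is the classical one of flies, and GstD1 is widely used as a reporter of oxidative stress and metabolizes DDT. GstD1, the brightest delta probe set, stood at 11.65, 12.14, 11.91 and 12.30 in WT and at 12.36, 11.92, 11.84 and 11.02 in HEXIM knockdown arrays. The highest and the lowest of the 8 levels were thus both in HEXIM knockdown heads. GstD1 differed by -0.21 on the log2 scale (SE 0.27), with an adjusted p of 1.000 in limma, and by 0.040 without HEXIM knockdown replicate 4.

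GstD9 stood at 7.39, 7.77, 7.47 and 8.02 in WT and at 9.11, 8.30, 8.01 and 7.75 in HEXIM knockdown arrays. Replicates 1 and 2 of the HEXIM knockdown were above all WT arrays, and replicates 3 and 4 were not. The log2 fold change of 0.63 (SE 0.28, adjusted p = 0.705) became 0.36 without HEXIM knockdown replicate 1.

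GstD5 stood at 3.41, 3.44, 3.61 and 3.66 in WT and at 3.98, 3.69, 3.81 and 3.63 in HEXIM knockdown arrays, a difference of 0.25 (SE 0.10, adjusted p = 0.652). The groups overlapped through HEXIM knockdown replicate 4. GstD7 stood at 3.88, 3.86, 3.66 and 3.70 in WT and at 3.74, 4.10, 4.00 and 4.01 in HEXIM knockdown arrays, a difference of 0.18 (SE 0.10, adjusted p = 0.841), and overlapped through replicate 1. With GstD6 they are the 3 members whose mean level lay in the lowest 25% of all probe sets, up to 4.00. GstD4 was at 6.17, 6.07 and 6.53 in the arrays with low middle control probe sets (WT replicates 1 and 3, HEXIM knockdown replicate 4), whereas the other 5 lay at 4.61 to 5.01. Its log2 fold change was -0.25 with an SE of 0.49, and -0.040 without these 3 arrays. The other 6 delta genes had log2 fold changes between -0.08 for GstD11 and 0.18 for GstD3, with overlapping groups.

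Gene neighbours were looked up by their order among protein-coding genes of the RefSeq annotation. GstE10, GstE1 to GstE7, GstE8 and GstE9 follow one another on arm 2R with no other protein-coding gene between them, and GstD10, GstD9 and GstD1 to GstD8 do so on arm 3R, with GstD11 after 1 further gene. GstE8 was not analysed here. Within the epsilon run, HEXIM knockdown replicate 1 was above the WT mean by 0.48 (GstE1), 0.72 (GstE2), 0.56 (GstE3), 0.65 (GstE5), 1.23 (GstE6), 1.85 (GstE7) and 1.63 (GstE9), but by only 0.04 for GstE4, and GstE10 was 0.04 below it. The mean of the other 3 HEXIM knockdown arrays differed from the WT mean by -0.18 (GstE9) to 0.42 (GstE7) along the same run. For GstE4 the highest level, 8.26, was that of HEXIM knockdown replicate 2, against 7.08 to 7.75 elsewhere. In the delta run the corresponding values of HEXIM knockdown replicate 1 were 1.45 for GstD9, 0.36 for GstD1, 0.95 for GstD2 and 1.14 for GstD3, and between -0.46 (GstD4) and 0.45 (GstD5) for the rest. The signal of the same array was therefore uneven along both runs, with neighbours such as GstE4 and GstD4 not sharing it. Duplicated genes are alike in sequence, and how far their probe sets cross-react was not tested.

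**Figure D3:**
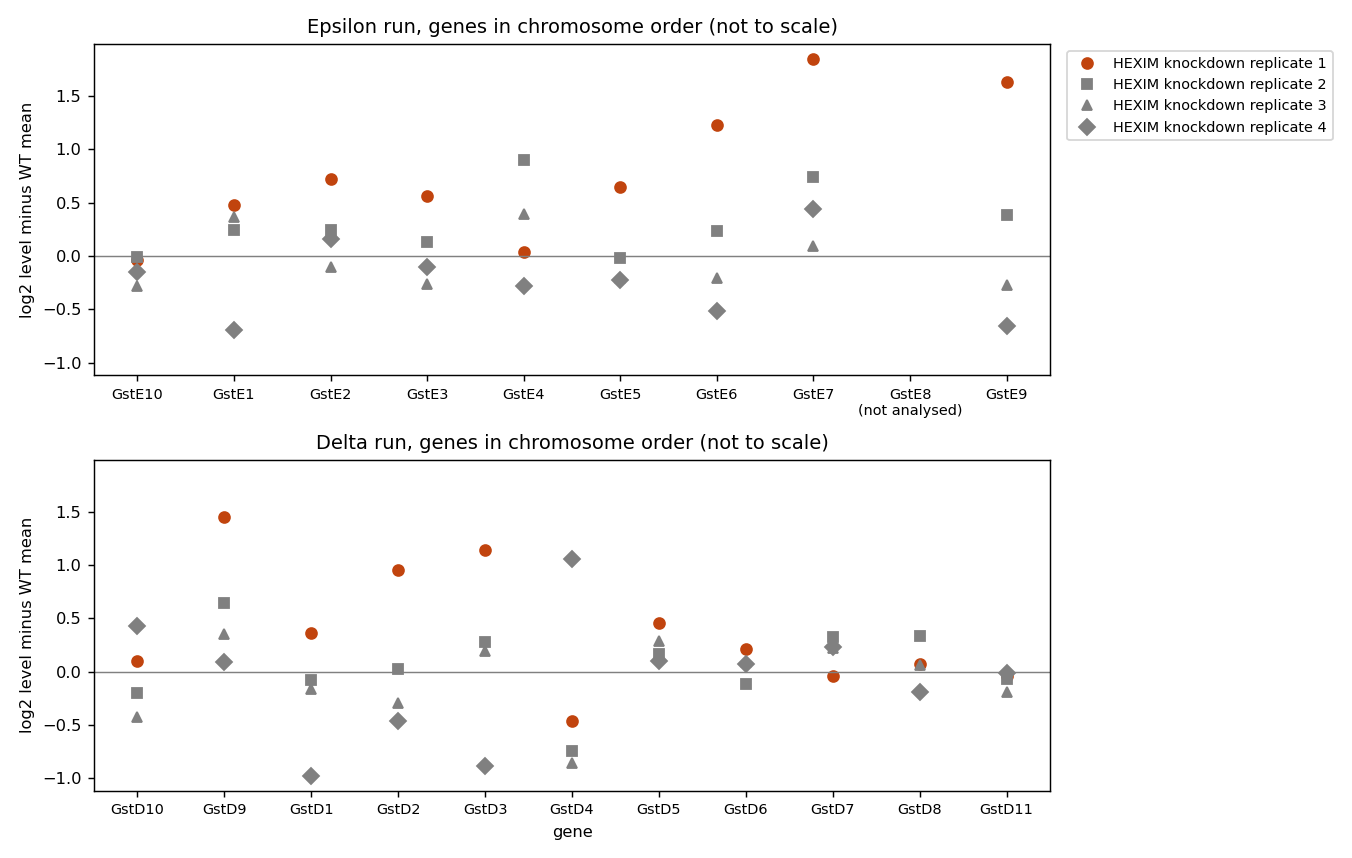
Log2 level of each HEXIM knockdown array minus the mean of the 4 WT arrays (y axis), for the genes of the epsilon run (top) and of the delta run (bottom) in chromosome order (x axis, not to scale). Replicate 1 is orange and the others grey, with the marker shape giving the replicate. Replicate 1 is the highest for GstE5, GstE6, GstE7, GstE9, GstD9, GstD2 and GstD3 but not for GstE4, GstD4 or GstD7.

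Omega enzymes act as thiol transferases and reductases. GstO1 was steady, at 6.47, 6.41, 6.47 and 6.48 in WT and 6.64, 6.66, 6.62 and 6.47 in HEXIM knockdown arrays. Replicates 1 to 3 of the HEXIM knockdown were above all WT arrays and replicate 4 was not (log2 fold change 0.14, SE 0.07, adjusted p = 0.800 from limma). The brighter probe set of GstO2 stood at 8.80, 8.97, 8.61 and 9.10 in WT and at 9.54, 9.04, 8.88 and 8.55 in HEXIM knockdown arrays. This probe set differed by 0.13 (SE 0.20), and by -0.050 without HEXIM knockdown replicate 1. Its other probe set stood at 7.13, 7.30, 6.73 and 7.47 in WT and at 8.53, 7.57, 7.61 and 6.98 in HEXIM knockdown arrays, a difference of 0.52 on the log2 scale (SE 0.31) with an adjusted p of 0.888. The annotation does not say which transcripts the probe sets read. GstO3 had a log2 fold change of -0.05. Between GstO3 and GstO2 on arm 3L lies se (sepia), an omega transferase of red eye pigment synthesis that carries its own symbol. It stood at 12.12, 12.12, 12.06 and 11.69 in WT and at 10.52, 11.26, 11.53 and 11.15 in HEXIM knockdown arrays, a difference of -0.88 (SE 0.21) with an adjusted p of 0.235, so that the groups did not overlap.

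GstS1, the sigma enzyme, is abundant in flight muscle and conjugates products of lipid peroxidation. Its probe set, of a type that can read more than 1 transcript, stood at 10.98, 10.62, 11.05 and 10.67 in WT and at 10.43, 10.60, 10.60 and 10.81 in HEXIM knockdown arrays. The 3 highest levels were those of WT replicates 1 and 3 and HEXIM knockdown replicate 4. GstS1 differed by -0.22 on the log2 scale (SE 0.13), with an adjusted p of 0.877, and by -0.10 without these 3 arrays. Of 7 measured muscle markers, 6 had a negative log2 fold change (median -0.07, and -0.32 with all 7 negative without these 3 arrays). Of these, TpnC4 passed the test, and bt (-0.002) and sls (-0.04) lay near 0. Over all probe sets 44.6% were positive. The muscle mean was 10.71, 11.06, 10.76 and 11.03 in WT and 10.39, 10.85, 10.64 and 10.65 in HEXIM knockdown arrays. Within WT it was lower, and GstS1 higher, in replicates 1 and 3, both arrays with low middle probe sets. The marker up stood at 9.49 and 9.55 there, against 10.83 and 11.03 in WT replicates 2 and 4. The part of muscle in the value of GstS1 was not tested.

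The theta genes GstT1 to GstT4 had log2 fold changes of 0.06, -0.09, -0.24 and -0.13, with standard errors of 0.11 to 0.21. GstT4, the brightest of them, stood at 8.80, 9.20, 8.44 and 9.03 in WT and at 9.06, 8.62, 8.86 and 8.40 in HEXIM knockdown arrays. Leaving out 1 array moved its difference between -0.27 (without WT replicate 3) and -0.019 (without HEXIM knockdown replicate 4). The groups of all 4 genes overlapped.

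Many members followed single arrays. HEXIM knockdown replicate 1 was the highest of the 4 HEXIM knockdown arrays for 24 of 34 members (70.6%), against 22.4% of all probe sets, and the highest of all 8 arrays for 20 (58.8% against 13.7%). It lay at least 1 above the WT mean for 6 members, GstD3, GstD9, GstE6, GstE7, GstE9 and GstE11, or 17.6% against 2.34% of all probe sets. HEXIM knockdown replicate 4 was the lowest of its group for 23 members (67.6% against 30.7%). WT replicate 3 was the lowest of the WT arrays for 17 of 34 members, 10 of them epsilon genes, where 18.4% of all probe sets were lowest, and WT replicate 4 the highest for 21 (61.8% against 20.8%). Members share their arrays and many are duplicates of each other, so these counts describe the arrays and are no test.

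The mean log2 level of the 34 members was 7.48, 7.51, 7.35 and 7.59 in WT replicates 1 to 4 and 7.92, 7.57, 7.43 and 7.28 in HEXIM knockdown replicates 1 to 4. The HEXIM knockdown arrays thus included both the highest and the lowest mean. With HEXIM knockdown replicate 1 left out, 11 members had a positive log2 fold change instead of 21, and their median was -0.09 instead of 0.06. Without WT replicate 3, low in female head markers, 18 were positive and the median was 0.0091. Without HEXIM knockdown replicate 4, one of the arrays with low middle probe sets, 24 were positive and the median was 0.14, and without WT replicate 4 these were 22 and 0.12. The SD was larger among HEXIM knockdown than among WT arrays for 29 members (85.3% against 62.4% of all probe sets).

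**Figure D4:**
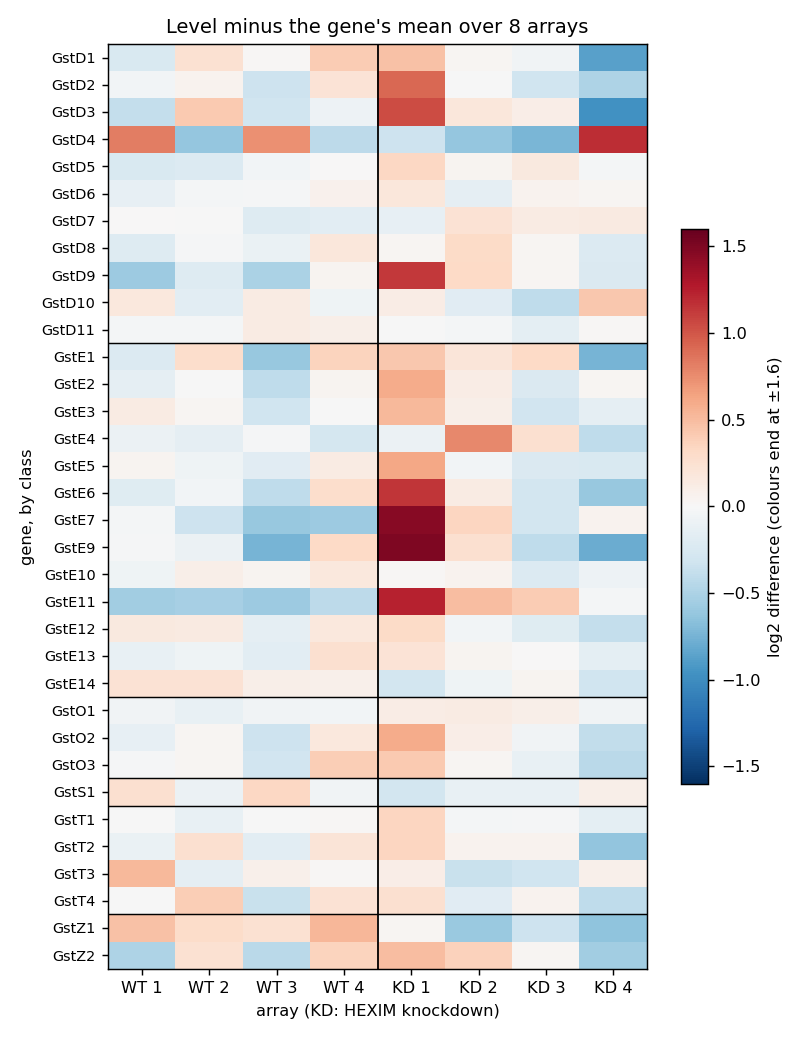
Log2 level of each glutathione transferase gene (rows, by class) on each array (columns, KD for HEXIM knockdown) minus the mean of that gene over the 8 arrays, as colour. The column of KD 1 is mostly red, with GstE7 and GstE9 the darkest, that of KD 4 mostly blue, and GstD4 is red in WT 1, WT 3 and KD 4.

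The mean level of fat body markers ordered the arrays in the same way within each genotype. All 11 measured markers had a positive log2 fold change, with a median of 0.74, and none passed the test. Without WT replicate 3 the median was 0.13, with 8 positive and fit, apolpp and Apoltp negative. Their mean level was 10.90, 11.11, 9.74 and 11.15 in WT and 11.81, 11.60, 11.18 and 10.97 in HEXIM knockdown replicates 1 to 4. Among HEXIM knockdown arrays replicate 1 was the highest and replicate 4 the lowest, both for this mean and for that of the glutathione transferases. WT replicate 3 was the lowest and WT replicate 4 the highest WT array in both. Fbp1 and Fbp2, the markers of smallest p, did not share this order. In HEXIM knockdown replicates 1 to 4 Fbp1 stood at 8.54, 9.23, 9.93 and 9.17 and Fbp2 at 9.54, 10.19, 10.86 and 10.51. In WT both were highest in replicate 3. In HEXIM knockdown arrays the means of the lists of glutathione supply and of peroxide handling, given below, fell in the same order. In WT both lists were highest in replicate 2. The list of peroxide handling includes dhd, which stood at 6.92 in WT replicate 2 against 4.50 to 4.72 in the other WT arrays. The fat body markers include the 4 genes of female heads, which had their highest mean, 12.91, in HEXIM knockdown replicate 1. The median difference of these 4 was 0.83, and 0.055 without WT replicate 3. Antimicrobial peptide genes were looked up after the pattern was seen. CecB, Mtk, DptB and Drs all had their highest level in HEXIM knockdown replicate 1, at 11.16, 12.91, 12.58 and 13.13. Across HEXIM knockdown replicates 2 to 4, CecB (9.79, 8.56 and 7.83) and DptB (9.88, 8.27 and 8.22) fell as the glutathione transferase mean did. Mtk (10.56, 9.29 and 9.89) and Drs (10.98, 9.68 and 10.80) were instead lowest in replicate 3. In WT, replicate 4, the highest for the glutathione transferases, was the lowest for CecB (6.77, 5.98, 6.61 and 5.40), Mtk and DptB. Drs was lowest in WT replicate 3. Haemocyte markers had mean levels of 6.95 to 7.20 in WT and 7.18 to 7.35 in HEXIM knockdown arrays. The arrays with low middle probe sets (WT replicates 1 and 3, HEXIM knockdown replicate 4) were the lowest of their genotype for both the fat body and the glutathione transferase mean. The part of fat body, sex, immune state or RNA quality in the glutathione transferase levels was not tested. In whole heads more cells of a type cannot be told apart from more RNA per cell.

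Some members, like many probe sets of the whole table, were set apart by the arrays with low middle probe sets. These arrays, 2 of WT and 1 of HEXIM knockdown heads, lay below all others for 8 members, GstD3, GstD8, GstD9, GstE1, GstE13, GstO2, GstT2 and GstZ2, and above all others for GstD4, GstD10 and GstS1. These are 8 and 3 of 34 members. Among all probe sets 12.7% were below and 19.9% above in this way, so that such splits were also common outside the members. Of the members more lay below than above, the reverse of all probe sets. Without these 3 arrays 18 members had a positive log2 fold change and the median was 0.03.

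Genes around glutathione were read from further lists, and none of their genes passed the test. The 6 other genes of the transferase fold or of microsomal transferases had 5 negative values and a median log2 fold change of -0.17, with se at -0.88 and gfzf, a nuclear protein with a transferase domain, at -0.25. Of 9 genes listed for glutathione synthesis and supply, 7 were positive (median 0.16), with Gnmt the largest at 1.09 (SE 0.63). Not all genes of this list make glutathione, so the count is no measure of its synthesis. Cbs, which makes cystathionine on the way to cysteine, had 7.51, 7.75, 7.44 and 7.80 in WT and 8.04, 8.17, 7.87 and 7.97 in HEXIM knockdown arrays (log2 fold change 0.39, SE 0.11, adjusted p = 0.352). The subunits of the rate-limiting ligase had log2 fold changes of 0.09 (Gclc) and -0.21 (Gclm).

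Of 15 genes of thioredoxin, glutaredoxin and peroxide handling, 8 were positive (median 0.03), with TrxT at 0.33 and the superoxide dismutase gene Sod3 at 0.18. TrxT read only 3.08 to 3.75 on the arrays, within the lowest 25% of all probe sets (up to 4.00). The largest log2 fold change of this list, 1.73 (SE 1.19, adjusted p = 0.955 in limma), was that of dhd. It was uneven in both groups, at 4.50 to 6.92 in WT and 4.18 to 9.30 in HEXIM knockdown arrays. Of 9 genes around Cnc and Keap1, 7 were negative (median -0.05). Both cnc and Keap1 were near 0, at 0.00 and 0.10. maf-S, the small Maf partner of Cnc, stood at 9.79 to 9.96 in WT and 9.58 to 9.67 in HEXIM knockdown arrays (log2 fold change -0.24, SE 0.07, adjusted p = 0.354). The nuclear receptor gene Hr96, which regulates responses to foreign compounds, had a log2 fold change of -0.25 (adjusted p = 0.286). Of 44 genes of glucuronosyl and sulfate conjugation and of export pumps, 19 were positive (median -0.02), with Ugt35B1 at -0.43 (SE 0.14, adjusted p = 0.439). Of 8 esterase genes, 4 were positive (median 0.01). Over all genes with a named probe set the median was -0.02.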

How the data were processed

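Head RNA of 4 WT and 4 HEXIM knockdown samples was hybridized to Affymetrix Drosophila_2 arrays. The authors deposited normalized log2 signals. Their tools were RMA and Affymetrix Expression Console in the submitters' processing notes but GCRMA in the study's methods, and which was used was not settled. They were used as they are. Probe set names came from the platform annotation, and all 34 symbols are current in RefSeq. Of 18952 probe sets, 183 controls were left out.

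The test was limma 3.58.1 in R 4.3.3 (lmFit, eBayes), on the difference of HEXIM knockdown from WT, and p-values were adjusted over 18769 probe sets (Benjamini-Hochberg, threshold 0.05). The fit was first run on simulated data with independent normal noise. That run held no effect shared by the probe sets of an array, so it does not speak to the array differences described here. Exact two-sided permutation tests over the 8 arrays were used for single genes, without adjustment. Their p was 0.0571 for GstD5, GstE7 and GstO1, and larger for the other members with overlapping groups. Figures were drawn with Python 3.11.15 and matplotlib 3.10.9. The labels call the samples biological replicates. The number of arrays limits the precision.

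The members and lists were chosen with earlier results of these data known. Values on each array are given for the 8 members of smallest p, the brightest of each class and the gene whose probe sets differ most. GstZ2, GstE4, GstE9, GstD4, dhd, Gnmt, up and the antimicrobial peptide genes were added after their values were seen. The list of male heads was matched by name and also caught a cuticle gene. The test was repeated under 18 other settings, and under 2 more on RNA quality that were chosen after seeing the data. So were the differences of means of classes, marker lists, GstD4, GstE4 and GstZ2 with arrays left out.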

Additional observations from a re-analysis of the deposited data

Results flagged for a closer look

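Among 82 sets of 4 arrays (each member and each class mean in each genotype), 2 held a single array whose gap to its nearest neighbour took up most of the spread. By chance 1 in 20, or about 4.1, would. Both were WT replicate 3, the array with low female head markers, whose part in these values was not tested. GstE12 read 11.36 there, below 11.64 to 11.67 elsewhere in WT. The theta genes averaged 7.95 there, below 8.17 to 8.18 elsewhere in WT.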

How the results depend on the processing

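The count of called glutathione transferase genes stayed at 0 under 18 of 20 alternatives. It was 2 with array weights (GstE11, adjusted p = 0.00753, and GstZ1, adjusted p = 0.00644 from limma), in a fit that weighted HEXIM knockdown replicate 2 at 9.03, and 0 to 1 without 1 array (GstZ1, without HEXIM knockdown replicate 1). Over all probe sets, 48 were called, and 10 to 48 without 1 array, 507 with array weights, 8 with a minimum log2 fold change of 0.5, 3 without the 3 arrays of low middle probe sets, 132 with that control measure as a covariate, and 1 with the replicate block. The correlations of same-numbered arrays were -0.11, 0.57, -0.19 and -0.72. Levels as they stand correlated at 0.974 to 0.997 between arrays, so these values are of another measure. Only WT replicate 2 had its same-numbered array as best partner. The labels name no pairing, and these values do not settle whether there was one. Without 1 array the log2 fold change of GstD1 was -0.41 to 0.040 (positive without HEXIM knockdown replicate 4) and that of GstO2 -0.050 to 0.28 (negative without HEXIM knockdown replicate 1). The other 11 named members kept their direction under every alternative in which they were tested. The cause of these changes was not tested.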
